A study of Caenorhabditis elegans with 10 samples.

Results

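The genes described here are the major sperm protein genes (msp), the sperm-specific family genes (ssp) and the nematode-specific peptide family, group D genes (nspd) of Caenorhabditis elegans. They were chosen by name, as every gene whose symbol in the deposited expression table is msp, ssp or nspd followed by a number. This gave 52 of 40857 gene symbols, of which 30 were msp, 12 ssp and 10 nspd genes. Messenger RNA of whole worms was compared between 5 genotypes: N2, which is wild type; daf-2(e1370); daf-16(mu86);daf-2(e1370); math-33(tm3561); and the double mutant daf-2(e1370);math-33(tm3561). Populations were only roughly synchronised and grown at 15 °C, and each genotype was then either left at that temperature or moved to 25 °C at the L3 or L4 larval stage for 22 hr. All libraries carry the stage label L4 or preadult, so both temperatures share 1 stage label although growth runs faster in the warmth. With 1 library for each of the 10 groups, any difference of 2 libraries stands without replicates and is given no p-value.

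Nematode sperm have no flagellum and crawl with a pseudopod whose cytoskeleton is built from major sperm protein in place of actin. Major sperm protein is also released from sperm and signals oocyte maturation and contraction of the gonadal sheath. Hermaphrodites make their sperm late in larval life, store it, and then switch the germline to oocytes, so sperm transcripts in whole worms come and go within a short developmental window. The ssp genes encode small proteins related to major sperm protein. The nspd genes encode short nematode-specific peptides whose transcripts are enriched in sperm-producing germlines. The worm's insulin/IGF-1 receptor is DAF-2, and DAF-16 is the FOXO transcription factor that it restrains. MATH-33 is a deubiquitylating enzyme that acts on DAF-16.

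The values are FPKM (fragments per kilobase of transcript and per unit of sequencing depth), which allow levels to be compared between genes of different length. Depth recovered from the FPKM steps was 25.2 to 35.2 M reads per library. For a transcript of 382 bases, a count of 0 allows a level of up to 0.446 to 0.623 FPKM at these depths, at a floor of 3 read pairs. The math-33 transcript stood at 13.9 to 15.9 FPKM in the 4 libraries with tm3561 and at 59.8 to 79.3 FPKM in the other 6. A daf-16 transcript of 1453 bases held at most 19 reads more than the daf-16 transcript of 906 bases in the 2 libraries with mu86, against 142 to 295 more in the other 8. Of the 52 genes, 50 reached 1 FPKM in at least 2 libraries and entered the comparisons (30 msp, 11 ssp and 9 nspd). The remaining ones were ssp-36, which peaked at 1.20 FPKM, and nspd-8, which was listed at 0 in every library. The genes ssp-9 and ssp-11 lie at the same position in the table with equal values, so the 52 symbols stand for 51 positions. Many msp genes are near-identical copies: 28 of the 30 have transcripts of 382 bases. The sources used here do not say how reads shared by such copies were assigned, so the value of 1 copy is less certain than the level of its family. In whole worms, fewer sperm-producing cells and less RNA per cell cannot be told apart.

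All 3 families were high and low in much the same libraries. The median over the 51 positions was lowest in daf-2 at 15 °C (4.32 FPKM), followed by daf-16;daf-2 (5.04) and N2 (5.11) at 15 °C. It was 8.07 FPKM in daf-2 and 13.7 in daf-16;daf-2 at 25 °C, 14.8 in daf-2;math-33 and 28.0 in math-33 at 15 °C, and 36.6 in daf-2;math-33 and 38.6 in N2 at 25 °C. The highest median was 78.0 FPKM, in math-33 at 25 °C. The 3 low libraries at 15 °C lay close to each other, as did daf-2;math-33 and N2 at 25 °C, and with 1 library a group no spread is available to order such neighbours. Summed over the positions, the genes held 418 FPKM in daf-2 at 15 °C and 7261 FPKM in math-33 at 25 °C, which was 0.0387% and 0.673% of all FPKM of those libraries. That total adds every listed transcript, with 8 each for math-33 and daf-16, whereas each member position was added once. The percentages are therefore not shares of the messenger RNA. The msp genes made up 71.0 to 78.9% of the summed FPKM in each library, the ssp genes 11.8 to 15.1% and the nspd genes 9.34 to 15.0%, so the makeup of the sum moved far less than its size. No member reached 100 FPKM in N2, daf-2 or daf-16;daf-2 at 15 °C, while 14 did in N2 at 25 °C and 23 in math-33 at 25 °C. Over all genes, 1232, 1254 and 1259 reached it in these libraries at 15 °C, and 1290 and 1297 in those at 25 °C.

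**Figure D1:**
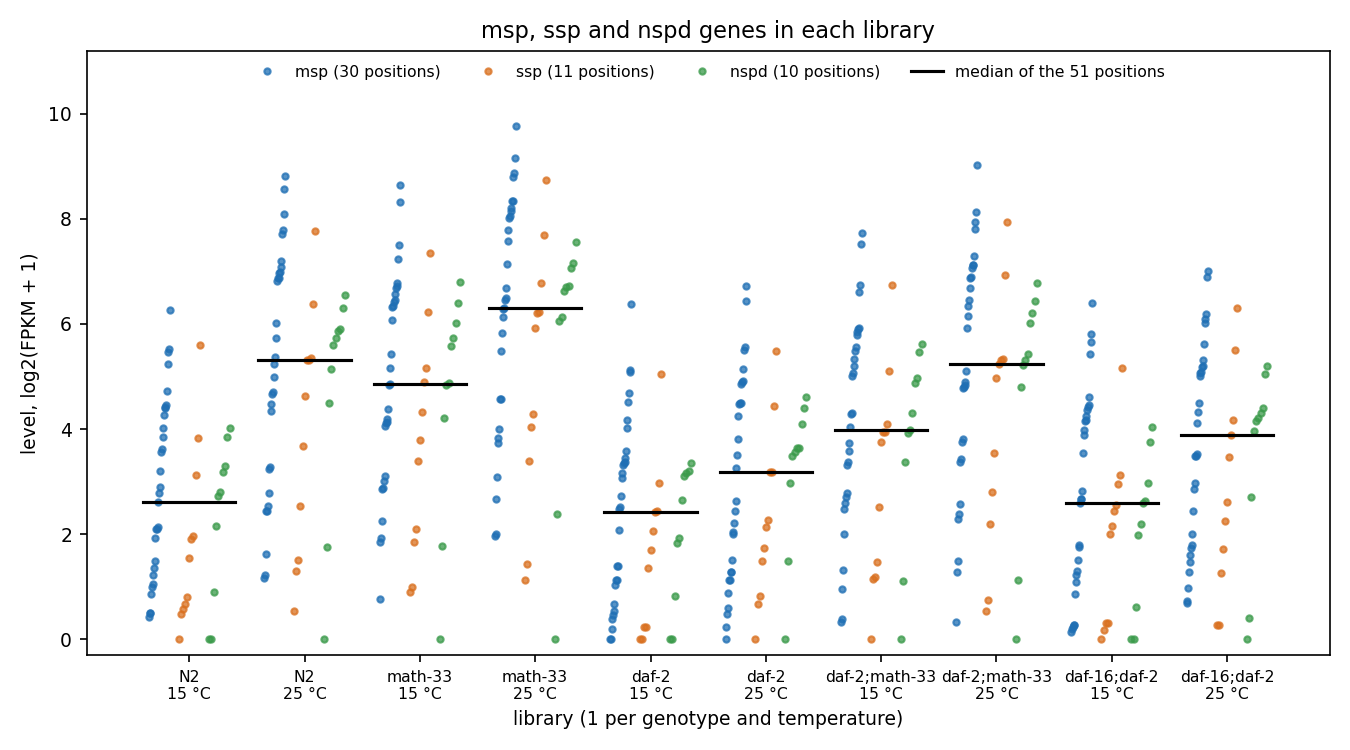
Level of each msp, ssp and nspd gene, as log2(FPKM + 1), in each of the 10 libraries. Every point is 1 gene position, sorted by level within its family and coloured by family, and the black line is the median of the 51 positions. The median of the 51 positions is highest in math-33 at 25 °C (78.0 FPKM) and lowest in daf-2 at 15 °C (4.32 FPKM). Each of the 3 families has its highest median in math-33 at 25 °C. The ssp median is lowest in N2 at 15 °C (1.92 FPKM, against 2.25 in daf-2 at 15 °C).

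The msp gene with the highest mean was msp-36 (C04G2.4, chromosome IV, 10095412 to 10095795), a major sperm protein gene. It stood at 43.4 and 449 FPKM in N2 at 15 and 25 °C, 33.8 and 85.1 in daf-2, 55.3 and 127 in daf-16;daf-2, 317 and 873 in math-33, and 182 and 520 in daf-2;math-33. Its level was thus high in math-33 and daf-2;math-33 at both temperatures and in N2 only at 25 °C. The next by mean, msp-57 (R13H9.2, chromosome IV, 5062570 to 5062953), was at 76.3 and 378 FPKM in wild-type N2, 82.4 and 105 in daf-2, 83.7 and 118 in daf-16;daf-2, 402 and 445 in math-33, and 212 and 281 in daf-2;math-33. In msp-57 the step between temperatures was large in N2 and small in the other genotypes. The genes msp-152 and msp-31 followed with means of 159 and 124 FPKM and were also highest in math-33 at 25 °C, at 573 and 465 FPKM.

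Among the ssp genes, the position shared by ssp-9 and ssp-11 (chromosome IV, 4999477 to 4999806) had the highest mean, 139 FPKM. Its level was 47.6 and 216 FPKM in N2 at 15 and 25 °C, 31.9 and 43.7 in daf-2, 34.9 and 77.5 in daf-16;daf-2, 162 and 427 in math-33, and 106 and 243 in daf-2;math-33. For ssp-16 (T27A3.3, chromosome I, 6102069 to 6102398) the levels were 13.2 and 81.8 FPKM in wild-type N2, 6.84 and 20.6 in daf-2, 7.69 and 44.5 in daf-16;daf-2, 74.1 and 206.6 in math-33, and 33.4 and 121 in daf-2;math-33. In both, daf-2 at 15 °C was the lowest library and math-33 at 25 °C the highest. The third by mean, ssp-35, ranged from 2.73 FPKM in N2 at 15 °C to 72.7 FPKM in math-33 at 25 °C.

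The leading nspd gene was nspd-5 (F11G11.8, chromosome II, 4860141 to 4860356), at 13.4 and 77.7 FPKM in wild-type N2, 9.16 and 23.4 in daf-2, 12.5 and 35.6 in daf-16;daf-2, 83.8 and 187 in math-33, and 48.4 and 109 in daf-2;math-33. The order of its libraries was close to that of msp-36 and ssp-16, with N2 at 25 °C near math-33 at 15 °C. Its relative nspd-6 was at 110 and 104 FPKM in math-33 at 15 and 25 °C, a pair without a step, and at 15.1 and 93.2 FPKM in N2. The genes nspd-3 and nspd-1 had means of 36.8 and 36.3 FPKM and reached 97.4 and 142 FPKM in math-33 at 25 °C.

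The members moved together across the libraries. Among the 48 members with a mean of at least 1 FPKM, Pearson's r of log2(FPKM + 1) between a gene and the median of the others over the 10 libraries had a median of 0.968, and it was at least 0.9 for 41. The points share the libraries and the near-identical copies share reads, so r is a description. Of these 48, 46 were highest in math-33 at 25 °C, and daf-2 at 15 °C was among the 4 lowest libraries for each. With a mean of at least 5 FPKM and a transcript of at least 200 bases, 275 (2.74%) of 10028 other genes had an r of at least 0.95 to the members' median. Under the same limits 29 (74.4%) of 39 members had such an r to the median of the others.

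**Figure D2:**
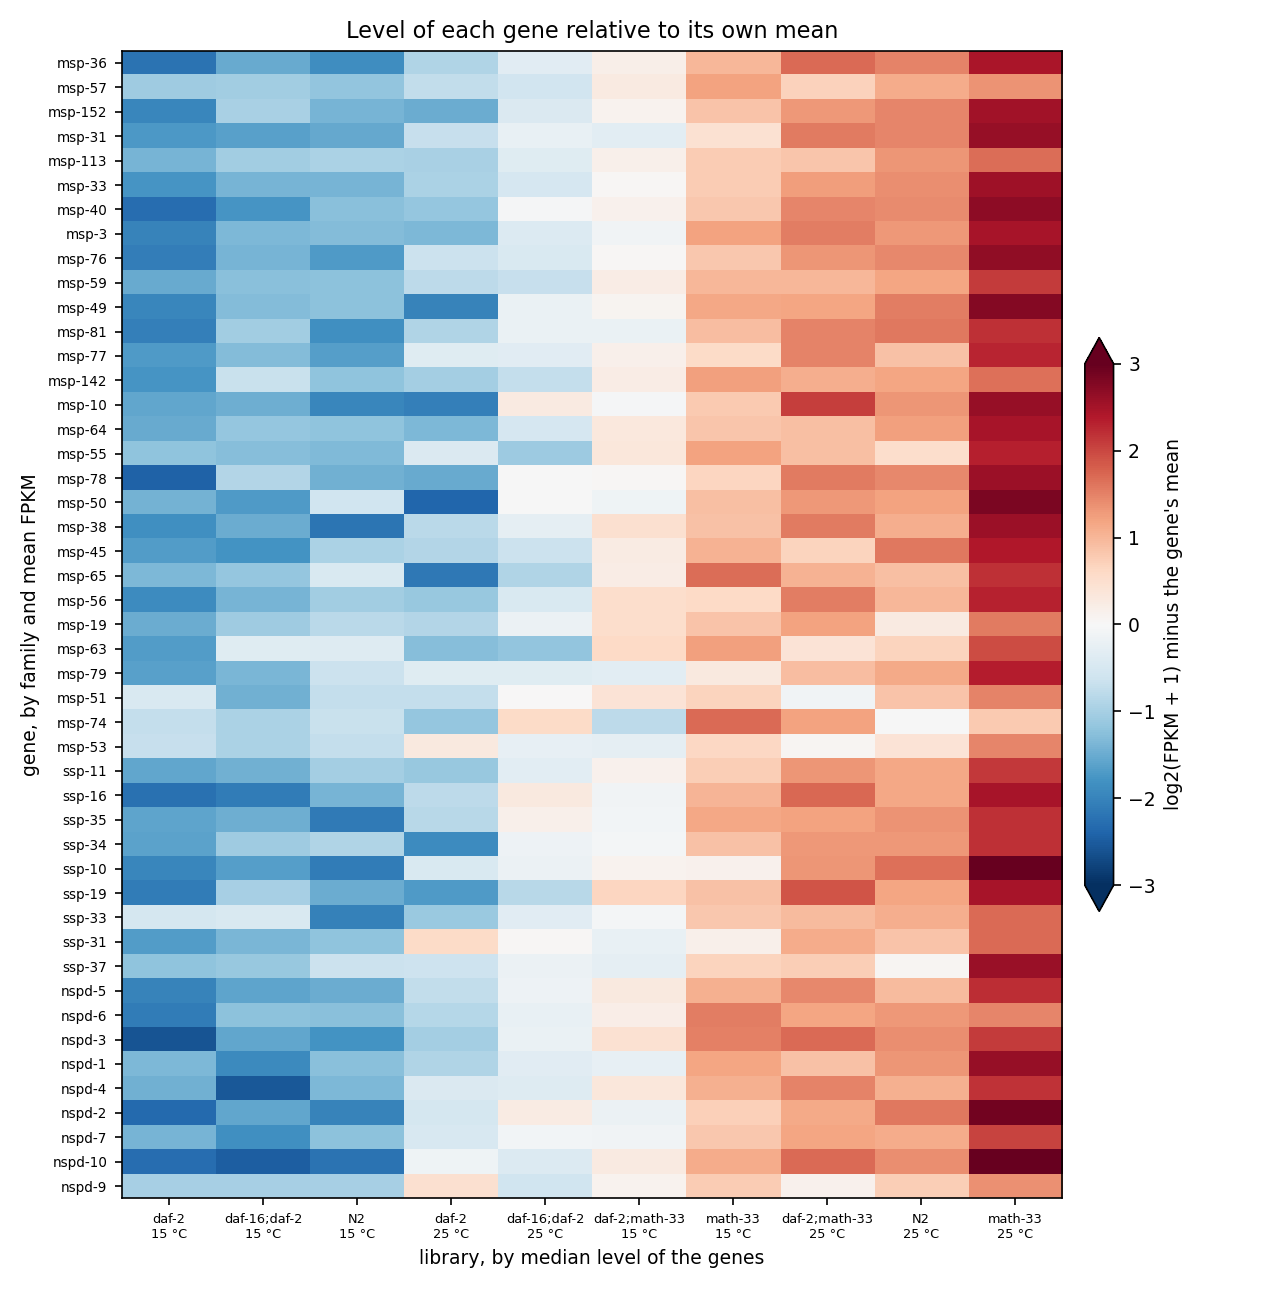
Each row is 1 msp, ssp or nspd gene with a mean of at least 1 FPKM, by family and falling mean, and each column is 1 library, ordered by the genes' median. Colour is log2(FPKM + 1) minus the gene's own mean over the 10 libraries. Most rows run from blue in the 15 °C libraries of daf-2, daf-16;daf-2 and N2 to dark red in math-33 at 25 °C. The rows least like the others are msp-74 (r = 0.739) and msp-63 (r = 0.831).

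The comparison of 25 with 15 °C asked how the shift to the warmer temperature, at which daf-2(e1370) is more strongly impaired, changed sperm transcripts in each genotype. In N2, msp-36 was 10.3-fold higher at 25 °C (95% counting interval 9.12 to 11.8), ssp-16 6.18-fold (4.77 to 8.11) and nspd-5 5.81-fold (4.16 to 8.05). In math-33 the same genes were 2.75-fold (2.60 to 2.91), 2.79-fold (2.45 to 3.17) and 2.23-fold (1.92 to 2.61) higher. These intervals cover counting error only and hold no variation between cultures. Of the 50 members tested, 47 were at least 1 log2 unit higher at 25 °C in N2 (background 13.3% of all genes tested), with a median difference of 2.46 on the log2(FPKM + 1) scale against 0.08 over all genes. The count was 36 in math-33 (background 6.63%, median 1.38), 34 in daf-2;math-33 (10.1%, 1.19), 24 in daf-16;daf-2 (10.2%, 0.98) and 17 in daf-2 (11.7%, 0.75). No member was 1 log2 unit lower at 25 °C in any genotype, against backgrounds of 3.82% in N2, 6.73% in math-33, 3.72% in daf-2, 3.27% in daf-2;math-33 and 4.19% in daf-16;daf-2. Of the members, 38 of the 50 were higher in all 5 pairs, a count not made over all genes. The log2(FPKM + 1) scale understates the differences of weakly expressed genes.

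The step between temperatures was larger in N2 than in daf-2 for 49 of the 50 members, by a median of 1.72 log2 units. It was larger in N2 than in daf-16;daf-2 for 48 of 50 (median 1.55) and than in math-33 for 46 of 50 (median 1.11). These differences of differences rest on single libraries, share the N2 libraries, and were not tested or counted over all genes. The gene with the widest step in N2 was ssp-10, 3.76 log2 units, followed by nspd-10, 3.60 log2 units. For nspd-10 the levels were 0.858 and 21.5 FPKM in wild-type N2, 0.774 and 6.86 in daf-2, 0.537 and 5.51 in daf-16;daf-2, 17.5 and 69.3 in math-33, and 9.37 and 26.9 in daf-2;math-33. In math-33, nspd-10 at 15 °C was already near its level in N2 at 25 °C.

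**Figure D3:**
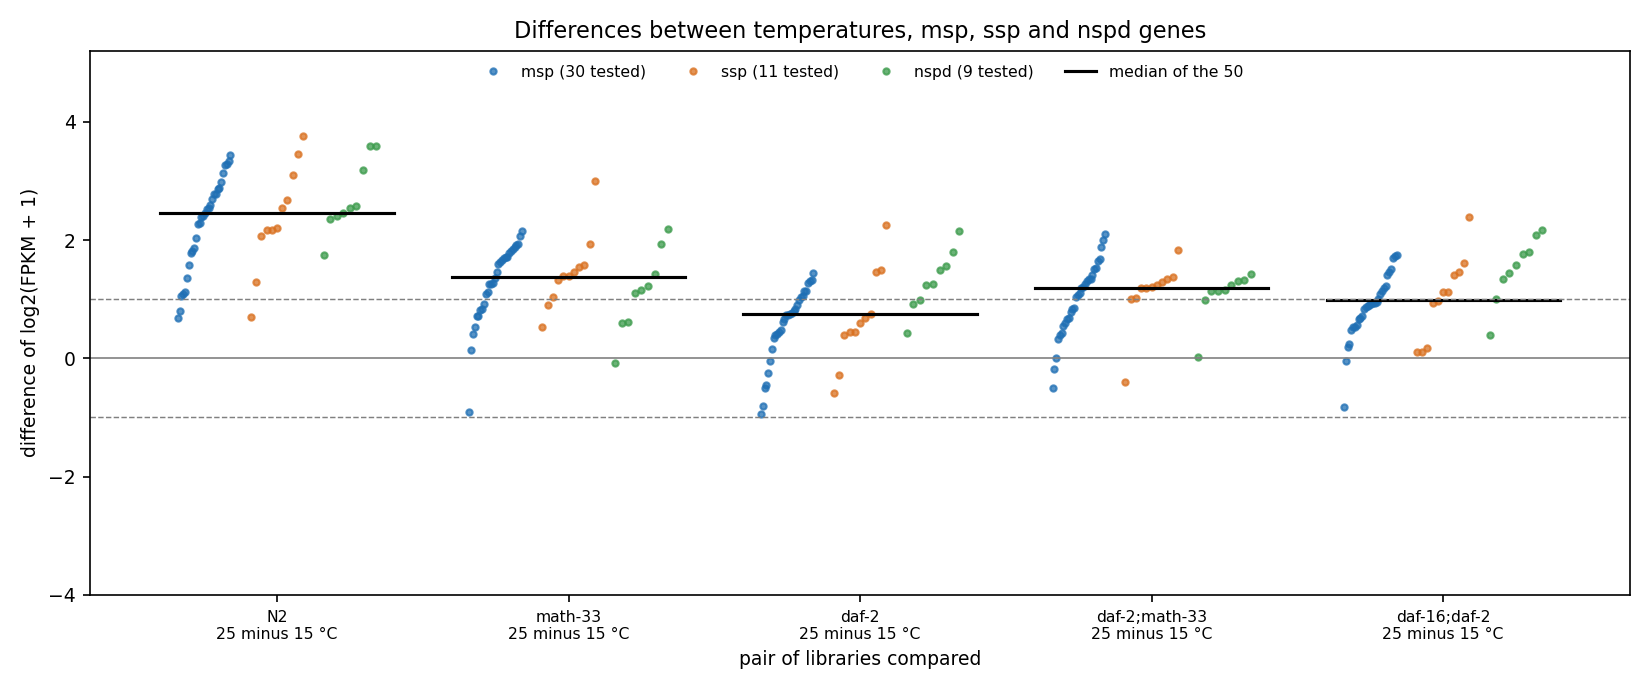
Difference of log2(FPKM + 1) between 25 and 15 °C for each tested msp, ssp and nspd gene in the 5 genotypes. Every point is 1 gene, the black line is the median of the 50 genes, and dashed lines mark 1 log2 unit. The cloud sits highest in N2 (median 2.46) and lowest in daf-2 (median 0.75).

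A linear model with a genotype and a temperature term was fitted to all 10 libraries with limma, leaving 4 residual degrees of freedom, and Benjamini-Hochberg adjustment of p-values ran over 16085 genes. At an adjusted p under 0.05, 36 of the 50 members rose with temperature and 0 fell, against 14.6% of all genes that rose and 4.68% that fell. The median over the 50 was 1.30 log2 units, and all 50 estimates were positive. By family, 21 of 30 msp, 7 of 11 ssp and 8 of 9 nspd genes rose. With the position shared by ssp-9 and ssp-11 counted once, 35 of 49 rose. The smallest adjusted p was that of ssp-16, which rose by 1.94 log2 units (SE 0.19, adjusted p = 0.00543) and was higher at 25 °C in 5 of 5 genotypes. Also rising in 5 of 5 genotypes were msp-40 by 1.76 (SE 0.21, adjusted p = 0.00747), nspd-10 by 2.24 (SE 0.29, adjusted p = 0.00789), nspd-5 by 1.49 (SE 0.20, adjusted p = 0.00816) and msp-31 by 1.89 (SE 0.26, adjusted p = 0.00822).

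Further members with a small adjusted p for temperature were ssp-31, msp-77, nspd-7, msp-79 and nspd-2, with estimates of 1.72, 1.57, 1.51, 1.48 and 2.14 log2 units. The levels of msp-40 were 20.0 and 134 FPKM in N2 at 15 and 25 °C, 9.29 and 21.6 in daf-2, 13.7 and 48.2 in daf-16;daf-2, 86.9 and 323 in math-33, and 54.0 and 138 in daf-2;math-33. The N2 pair of msp-40 spanned the widest step, and daf-2 at 25 °C stayed near N2 at 15 °C. The 14 members that did not pass had estimates between 0.23 (msp-63) and 1.21 (ssp-19) log2 units. Among them msp-57, the second most abundant msp gene, had an estimate of 0.73 (SE 0.30, adjusted p = 0.132). This fit takes its spread from genotypes and temperatures rather than from replicate cultures. With no filter on low values the count of 36 became 0, and 149 of all 40857 genes rose. With any 1 library left out the count was lower, as was the number of all genes that rose. All 50 estimates stayed positive each time, with medians of 1.07 to 1.54 log2 units.

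The comparison of math-33 mutants with matched strains asked what loss of math-33 does with an intact receptor (math-33 against N2) and with an impaired one (daf-2;math-33 against daf-2). The level of msp-36 at 15 °C was 7.31-fold higher in math-33 than in N2 (95% counting interval 6.43 to 8.39), that of ssp-16 5.60-fold (4.31 to 7.39) and that of nspd-5 6.26-fold (4.49 to 8.70). At 25 °C the folds for these genes were 1.94 (1.85 to 2.04), 2.53 (2.24 to 2.85) and 2.41 (2.07 to 2.82). In the daf-2 background at 25 °C they were 6.11 (5.56 to 6.74), 5.87 (4.78 to 7.34) and 4.65 (3.62 to 6.04). The folds between math-33 and N2 were smaller at 25 than at 15 °C, where N2 itself was low, and those in the daf-2 background were of like size at both temperatures.

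Of the 50 members tested, 47 were at least 1 log2 unit higher in math-33 than in N2 at 15 °C (background 11.5%, median 2.23) and 29 at 25 °C (background 5.25%, median 1.15). Within the daf-2 background, 44 were higher with math-33 lost at 15 °C (background 8.8%, median 1.80) and 44 at 25 °C (background 11%, median 2.07). None was 1 log2 unit lower in any of these 4 pairs, where the backgrounds were 2.79% and 7.16% for math-33 against N2 at 15 and 25 °C and 1.97% and 5.13% in the daf-2 background. In 46 of the 50 the difference was positive in all 4 pairs, a count not made over all genes. The exceptions, msp-32, msp-53, msp-74 and nspd-9, were positive in 3. The largest single difference was that of msp-10, 4.13 log2 units between daf-2;math-33 and daf-2 at 25 °C. Its levels were 3.29 and 40.6 FPKM in wild-type N2, 4.68 and 3.02 in daf-2, 5.05 and 19.04 in daf-16;daf-2, 28.0 and 101 in math-33, and 15.5 and 69.6 in daf-2;math-33. In msp-10 the daf-2 libraries were the only pair in which the level at 25 °C was not above that at 15 °C.

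**Figure D4:**
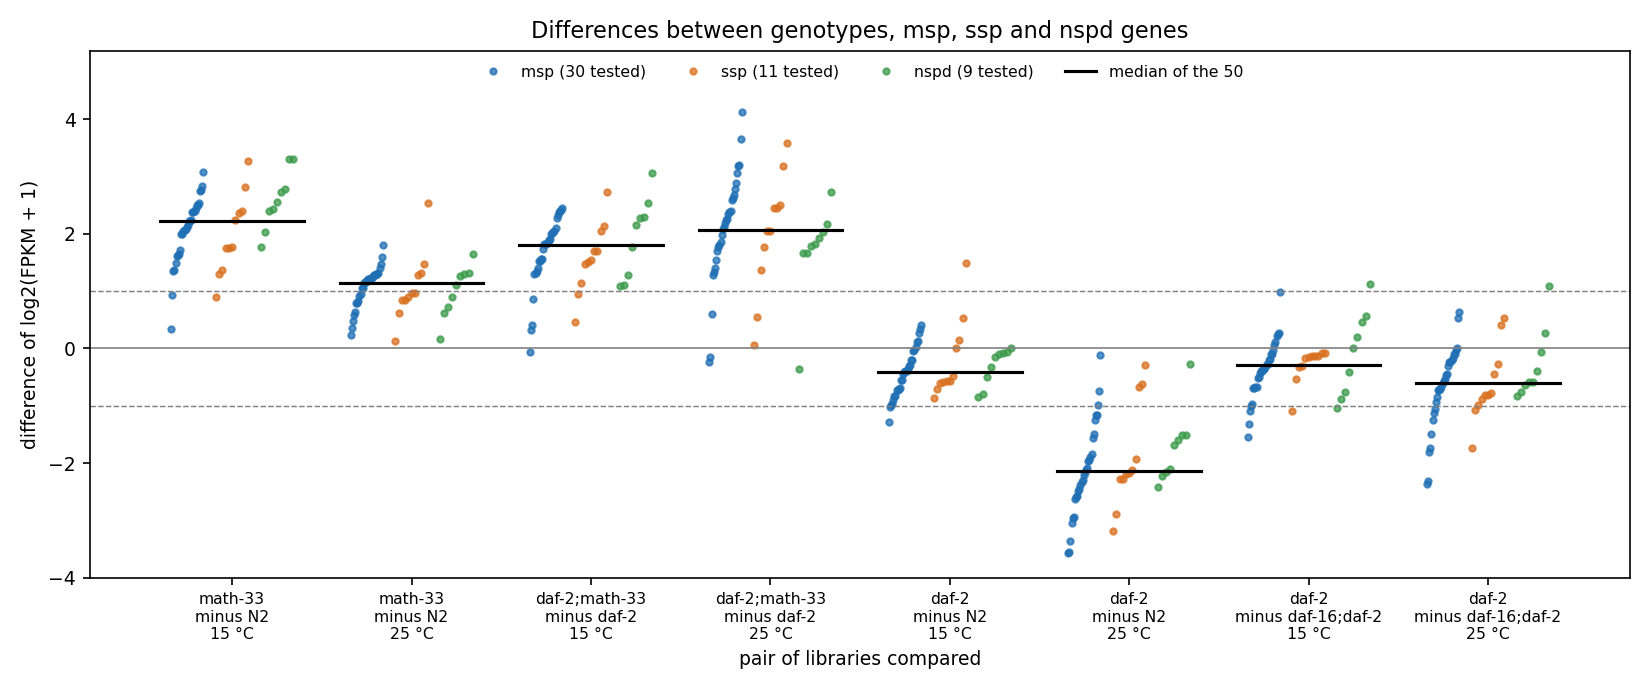
Difference of log2(FPKM + 1) between pairs of libraries of the same temperature for each tested msp, ssp and nspd gene. Every point is 1 gene, the black line is the median of the 50 genes, and dashed lines mark 1 log2 unit. The 4 pairs that differ in math-33 have medians above 0 (2.23, 1.15, 1.80 and 2.07), with 1 to 3 genes below 0 in the daf-2 background, and daf-2 lies far below N2 at 25 °C (median -2.14) but not at 15 °C (median -0.40).

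In the limma fit, 36 of the 50 members rose with math-33 loss averaged over both backgrounds and 0 fell, against 3.37% of all genes that rose and 0.578% that fell. The median was 1.83 log2 units, and all 50 estimates were positive. By family, 22 of 30 msp, 6 of 11 ssp and 8 of 9 nspd genes rose. With the position shared by ssp-9 and ssp-11 counted once, 35 of 49 rose. The gene ssp-16 rose by 2.09 log2 units (SE 0.21, adjusted p = 0.0102), nspd-5 by 2.07 (SE 0.22, adjusted p = 0.0129) and msp-40 by 2.09 (SE 0.24, adjusted p = 0.0154), each higher in 4 of 4 pairs. The smallest adjusted p, 0.00972, was that of msp-19, an msp gene of low level (0.595 to 12.2 FPKM) that rose by 1.76 log2 units (SE 0.17) and was higher in 4 of 4 pairs. The most abundant msp gene, msp-36, rose by 2.20 log2 units (SE 0.34, adjusted p = 0.0314). The 14 members that did not pass had estimates between 0.33 (msp-32) and 2.43 (msp-10, adjusted p = 0.0515).

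Of the 36 members that rose with math-33 loss, 30 (83.3%) also rose with temperature, and these were 83.3% of the 36 that rose with temperature. Because 36 of all 50 members rose in each contrast, a large overlap follows from the counts alone. The overlap was not counted over all genes. Both contrasts come from 1 fit to the same libraries. The count for math-33 loss depended on single libraries: it grew without N2 at 25 °C and fell without any other library. The number of all genes that rose with math-33 loss moved the same way each time. The direction of the members did not depend on single libraries: all 50 estimates were positive each time, with medians of 1.45 to 2.20 log2 units. With no filter on low values the count was 1, against 65 of all 40857 genes.

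Within each background alone limma called 0 members. For math-33 against N2, 44 of 50 were higher at an unadjusted p under 0.05, as were 1993 of all 16085 genes. The members' median was 1.65 log2 units and their smallest adjusted p 0.0629 (ssp-16). At an adjusted p under 0.05, 0.348% of all genes passed as higher and 0.0933% as lower. For daf-2;math-33 against daf-2, 43 members were higher at an unadjusted p under 0.05, as were 1731 of all 16085 genes. The members' median was 2.03 and their smallest adjusted p 0.0531 (msp-19). At an adjusted p under 0.05, 0% of all genes passed as higher and 0.0124% as lower. For math-33 against N2, the members' median was 0.91 without N2 at 15 °C and 2.32 without N2 at 25 °C. For daf-2;math-33 against daf-2 it ran from 1.54 to 2.24 with 1 library left out. In some of these refits members passed, as did genes outside the families. The test of whether math-33 loss differed between the backgrounds, the interaction term, called 0 members higher or lower, with 0% of all genes called. At an unadjusted p under 0.05, 1 member (msp-53) was lower, against 635 of all 16085 genes, and 0 were higher, against 755. The median of the interaction over the members was 0.32 log2 units, with 37 estimates positive and 13 negative. The fit has no term for a genotype difference that changes with temperature. Between single libraries at 15 °C the median for math-33 loss was 2.23 against N2 and 1.80 against daf-2. At 25 °C these medians were 1.15 and 2.07. Neither size nor direction of the interaction median held when 1 library was left out. It was -0.43 without N2 at 25 °C and 1.05 without N2 at 15 °C. Leaving out daf-2 at 15 or 25 °C gave 0.54 and -0.05, and leaving out daf-2;math-33 at 15 or 25 °C gave 0.14 and 0.48.

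The comparison of daf-2 with N2 asked what reduced insulin receptor function did to these genes. At 15 °C the levels lay close: in daf-2, 1 member was higher by at least 1 log2 unit and 2 were lower (backgrounds 2.92% and 2.85%), with a median of -0.40. After the shift to 25 °C, 43 members stood lower in daf-2 (background 9.28%) and 0 higher (9.33%), with a median of -2.14. At that temperature msp-36 was 5.28-fold lower in daf-2 (95% counting interval 4.80 to 5.82), ssp-16 3.96-fold (3.20 to 4.99) and nspd-5 3.32-fold (2.55 to 4.34). The widest difference was that of msp-50, -3.58 log2 units, with 25.0 FPKM in N2 and 1.18 in daf-2 at 25 °C, a 21.3-fold lower level (10.1 to 54.1). At an unadjusted p under 0.05, the limma contrast over both temperatures had 32 members lower, against 987 of all 16085 genes. At an adjusted p under 0.05 it called 0 members (0% of all genes either way), with a median of -1.24. Without N2 or daf-2 at 15 °C the median was -1.97 and -1.45. Without N2 or daf-2 at 25 °C it was -0.49 and -0.90.

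The strain without DAF-16 was closer to daf-2 than to N2 at 25 °C. Against daf-16;daf-2, daf-2 had 1 member at least 1 log2 unit higher and 6 lower at 15 °C (backgrounds 4.15% and 5.43%, median -0.29), and 1 higher and 10 lower at 25 °C (backgrounds 7.06% and 5.09%, median -0.60). At 25 °C msp-36 was 1.49-fold lower in daf-2 (95% counting interval 1.33 to 1.68) and ssp-16 2.15-fold lower (1.71 to 2.76). In limma 0 members passed for this contrast, against 0.0311% of all genes higher and 0.00622% lower. The members' median was -0.47. At an unadjusted p under 0.05, 3 of the 50 members were lower, against 793 of all 16085 genes. Those 3 became 15 without either N2 library, 12 without daf-2 at 15 °C (median -0.82, 1 member called) and 0 without daf-2 at 25 °C (median -0.04). They became 1 without either math-33 or either daf-2;math-33 library, and 1 without daf-16;daf-2 at 15 °C (median -0.27).

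Some pairs of strains were compared after the data had been seen. Against N2, daf-16;daf-2 had 1 member higher and 2 lower at 15 °C (backgrounds 4.18% and 2.9%, median -0.04) and 0 higher and 42 lower at 25 °C (backgrounds 3.85% and 6.43%, median -1.47). Against math-33, daf-2;math-33 had 0 members higher and 12 lower at 15 °C (backgrounds 4.09% and 4.25%, median -0.78) and 0 higher and 25 lower at 25 °C (backgrounds 9.79% and 4.94%, median -0.99). These comparisons share the N2, daf-2 and math-33 libraries with each other, so their medians are set side by side and are not separate observations. Set side by side at 25 °C, msp-31 stood at 208 FPKM in N2, 465 in math-33, 46.1 in daf-2, 223 in daf-2;math-33 and 64.1 in daf-16;daf-2. In daf-2;math-33 the level of msp-31 was close to that of N2, and in daf-16;daf-2 it was closer to that of daf-2.

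In some comparisons members differed among themselves mainly at low levels. In the 36 genes with a mean of at least 10 FPKM, 36 were at least 1 log2 unit higher in math-33 than in N2 at 15 °C, 36 in daf-2;math-33 than in daf-2 at each temperature, and 36 at 25 than at 15 °C in N2. Among the 14 tested genes with lower means the same counts were 11, 8 and 8, and 11. In other comparisons the 36 were split as well. At 25 °C, 22 of the 36 and 7 of the 14 were at least 1 log2 unit higher in math-33 than in N2. Between temperatures in daf-2, 14 of the 36 and 3 of the 14 were higher at 25 °C by that much. Among members with a mean of at least 1 FPKM, the gene least like the rest was msp-74 (r = 0.739), at 0.407 and 1.24 FPKM in wild-type N2, 0.367 and 0 in daf-2, 0.170 and 2.32 in daf-16;daf-2, 6.33 and 2.90 in math-33, and 0.307 and 4.22 in daf-2;math-33. Its highest library was math-33 at 15 °C, and most of its values were near the counting floor. Next under that limit was msp-63 (r = 0.831), with 7.58 and 13.2 FPKM in math-33 and 0.149 to 4.82 FPKM elsewhere.

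In the ssp family the least alike under that limit were ssp-33 (r = 0.886) and ssp-31 (r = 0.911). Below a mean of 1 FPKM, msp-32 had an r of 0.813, ssp-32 of 0.864 and the untested ssp-36 of 0.675. The levels of ssp-33 were 0.488 and 11.8 FPKM in wild-type N2, 3.17 and 1.79 in daf-2, 3.42 and 3.77 in daf-16;daf-2, 9.48 and 18.6 in math-33, and 4.75 and 10.6 in daf-2;math-33. It was therefore lowest in N2 at 15 °C, unlike most members. For ssp-31 daf-2 went from 0 FPKM at 15 °C to 3.79 at 25 °C, and math-33 from 2.59 to 9.45. In the nspd family the least alike were nspd-9 (r = 0.881), with 4.19 FPKM at most and 0 FPKM in 3 libraries, and the abundant nspd-6 (r = 0.945).

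The rule used names only, and the members share position and size as well. Of the 51 positions, 41 lie on chromosomes II and IV, where the table places all 30 msp genes (13 and 17), and 0 lie on X, which holds 13.9% of all genes tested. Chromosome I holds 7 positions, III 1 and V 2, all ssp or nspd genes. With gaps of at most 100 kb, 37 positions fall into 5 clusters of 3 or more, 3 on chromosome II and 2 on IV. The largest are on chromosome IV at 4999477 to 5316898 and at 9688998 to 9896029, with 11 positions each, followed by chromosome II at 4785893 to 4933404, with 8. Each large cluster mixes msp with nspd genes, and those on chromosome IV also hold ssp genes. Coordinates are those of the deposited table, whose build is ce10 per the submitters' processing notes. The transcripts of 5 members (msp-31, msp-33, msp-45, nspd-10 and ssp-31) overlap another gene, so part of their reads may belong to it.

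Other genes inside the 5 clusters stood higher more often than all genes in several of the comparisons, but only slightly more often in math-33 against N2 at 25 °C. Of 151 tested non-members there with transcripts of at least 200 bases, 63 (41.7%) were at least 1 log2 unit higher in math-33 than in N2 at 15 °C, against 10.4% of all 14656 such genes. The shares were 5.30% against 3.95% at 25 °C, 25.8% against 7.05% in the daf-2 background at 15 °C, and 37.7% against 9.68% at 25 °C. Between temperatures they were 38.4% against 12.1% in N2, 14.6% against 5.33% in math-33 and 15.2% against 10.7% in daf-2. They were 33.1% against 9.21% in daf-2;math-33 and 22.5% against 9.04% in daf-16;daf-2. No test was made of these shares.

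The genes outside the families whose levels followed the members most closely were ZK858.8 (r = 0.992), F26B1.8 (0.990), T08B2.12 (0.989), hrg-14 (0.989), C27B7.6 (0.989), smz-2 (0.988), C48E7.7 (0.988), nsph-4.1 and nsph-4.2, which share 1 position (0.988), and C05C12.5 (0.988), over the 10 libraries. Of these, F26B1.8 had the highest mean, with 32.3 and 181 FPKM in wild-type N2, 27.1 and 43.9 in daf-2, 28.2 and 65.6 in daf-16;daf-2, 154 and 344 in math-33, and 100 and 213 in daf-2;math-33. The table names smz-2 as T21G5.4, and RefSeq gives the current names used here.

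Sperm genes outside the 3 families were read from a list of 37, of which 35 were in the table and tested. The list holds the sperm chromatin genes spch-1 to spch-3, the sperm phosphatase genes gsp-3 and gsp-4, the msd genes, which encode proteins with a domain of the major sperm protein type, and many spe genes, which are needed for sperm formation or activation. In limma 22 of the 35 rose with temperature and 10 with math-33 loss, and 0 fell. Over all genes 14.6% rose and 4.68% fell with temperature, and 3.37% rose and 0.578% fell with math-33 loss. With temperature spch-3 rose by 1.76 (SE 0.17, adjusted p = 0.00543) and spe-11 by 1.69 log2 units (SE 0.21, adjusted p = 0.00747). With math-33 loss spch-1 rose by 1.95 (SE 0.27, adjusted p = 0.0260) and gsp-3 by 1.56 log2 units (SE 0.32, adjusted p = 0.0472). The levels of spch-1, the highest in the list, were 46.1 and 327 FPKM in wild-type N2, 30.9 and 87.2 in daf-2, 41.4 and 99.3 in daf-16;daf-2, 273 and 564 in math-33, and 143 and 434 in daf-2;math-33. Its libraries stood in nearly the same order as those of msp-36.

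At 25 °C the median difference of these other sperm genes between math-33 and N2 was 0.27 log2 units, against 1.15 for the members. At least 1 log2 unit higher were 2 of 35, against 29 of 50 members and 5.25% of all genes. At 15 °C the median of the other sperm genes was 1.66, and in the daf-2 background it was 1.05 at 15 °C and 1.48 at 25 °C. Between temperatures it was 1.99 in N2 and 0.49 in math-33. For spe-4, a presenilin needed in spermatocytes, N2 and math-33 at 25 °C were at 32.5 and 28.1 FPKM and daf-2;math-33 at 39.3 FPKM. Thus the highest library differed between spe-4 and the msp genes, and no test was made between the lists.

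Of 11 regulators of the sperm or oocyte fate, 1 rose with temperature in limma, against 14.6% of all genes. It was fem-3, which promotes the male fate (0.87 log2 units, SE 0.13, adjusted p = 0.0103). With math-33 loss 1 of the 11 rose, against 3.37% of all genes. It was fog-1, an RNA-binding protein that specifies the sperm fate (1.32 log2 units, SE 0.27, adjusted p = 0.0478). The levels of fog-1 were 25.8 and 10.9 FPKM in wild-type N2, 28.3 and 22.7 in daf-2, 21.7 and 12.8 in daf-16;daf-2, 54.0 and 65.8 in math-33, and 40.0 and 55.6 in daf-2;math-33. For fog-3, which acts with fog-1, they were 9.36 and 2.12 FPKM in wild-type N2, 10.5 and 8.40 in daf-2, 7.39 and 8.47 in daf-16;daf-2, 22.2 and 21.3 in math-33, and 18.8 and 21.8 in daf-2;math-33. Both were lowest in N2 at 25 °C, a library in which the msp genes were high, and both were higher in the 4 libraries with tm3561 than in the other 6.

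**Figure D5:**
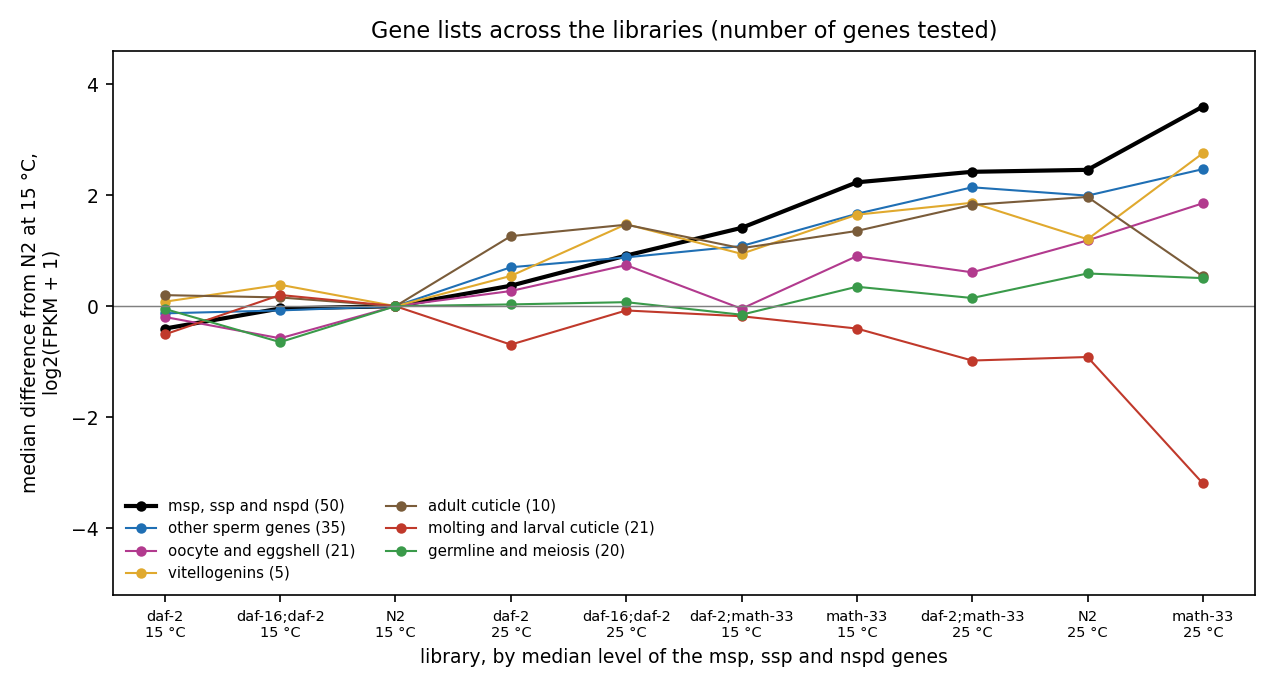
Median difference from N2 at 15 °C, in log2(FPKM + 1), of the msp, ssp and nspd genes and of 6 other gene lists in each library, ordered by the median level of the msp, ssp and nspd genes. The number of genes tested stands in brackets. Other sperm genes, oocyte genes and vitellogenins also stand higher in the libraries on the right, and molting genes are far lower in math-33 at 25 °C (median difference from N2 at that temperature -2.24).

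Markers of developmental stage and of other tissues followed the members to unequal degrees. As background for the limma counts below, 14.6% of all genes rose with temperature and 3.37% with math-33 loss. The median r to the members' median over the 10 libraries was 0.938 for vitellogenins, 0.892 for oocyte and eggshell genes, 0.714 for germline proliferation and meiosis, 0.559 for adult cuticle, 0.161 for male somatic and -0.722 for molting genes. The 5 vitellogenin genes in the table, which encode yolk proteins made in the adult hermaphrodite intestine, all rose with temperature and with math-33 loss. Their summed level was 1791 and 3984 FPKM in wild-type N2, 1911 and 2772 in daf-2, 2306 and 4816 in daf-16;daf-2, 5976 and 12311 in math-33, and 3468 and 6805 in daf-2;math-33. Of 21 oocyte and eggshell genes, 20 rose with temperature and 4 with math-33 loss, with a summed level of 1046 to 1531 FPKM in the 15 °C libraries of N2, daf-2 and daf-16;daf-2 and 6764 FPKM in math-33 at 25 °C. Of 20 genes of germline proliferation and meiosis, 8 rose with temperature and 0 with math-33 loss, and their sum was 1159 to 2987 FPKM.

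Of 21 molting and larval cuticle genes, 2 fell with temperature (fbn-1 and ptr-4, background 4.68% of all genes) and 0 changed with math-33 loss. Their summed level was 400 FPKM in math-33 at 25 °C and 1829 to 4155 FPKM in the other 9 libraries, so the library with the most sperm transcript was also the one with the least molting transcript. Of 10 adult cuticle genes, 3 rose with temperature (background 14.6%) and 2 with math-33 loss (3.37%). In single pairs 8 of the 10 were at least 1 log2 unit higher in math-33 than in N2 at 15 °C (background 11.5%, median 1.36). At 25 °C, however, 2 were higher and 6 lower (backgrounds 5.25% and 7.16%, median -1.73). Between temperatures 8 were higher in N2 (background 13.3%, median 1.97). In math-33, by contrast, 3 were higher and 5 lower (backgrounds 6.63% and 6.73%, median -0.92). The part of developmental timing in the differences of the msp, ssp and nspd genes was not tested. Of 11 genes of male somatic tissues, 4 passed the filter on low values and 0 changed with temperature or math-33 loss. The highest was mab-3, a transcription factor of male development, at 3.91 to 38.4 FPKM, followed by try-5 at 0.923 to 4.05 FPKM. The other 9 reached at most 2.21 FPKM, and lov-1, pkd-2 and cwp-3, of male sensory neurons, were at or below 0.237 FPKM in every library. Their summed level, with mab-3 the largest part in every library, was 9.92 to 41.97 FPKM and lowest in math-33 at 25 °C. The median of the 11 was 0.51 and 0.274 FPKM in math-33 at 15 and 25 °C. It was 0.571 and 0.247 FPKM in daf-2;math-33, and 0.0800 to 0.210 FPKM in the libraries without tm3561. These medians are low and their difference was not tested. In math-33 at 25 °C, cwp-1 (0.793 FPKM) and clec-207 (0.961 FPKM), picked after the values were seen, stood above N2 at 25 °C (0 and 0.108 FPKM). The list as a whole did not: its sum was 9.92 FPKM in math-33 and 10.6 FPKM in N2 at 25 °C. Of the 4 genes tested, 0 were at least 1 log2 unit higher or lower in that pair (backgrounds 5.25% and 7.16%, median 0.03).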

How the data were processed

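Whole-worm polyadenylated RNA was sequenced as stranded paired-end libraries from about 3000 worms each, with an RNA integrity number above 8.0, per the labels' protocols. The authors deposited FPKM per transcript. The submitters' processing notes name STAR, HOMER, edgeR and the build ce10, without role or version. The table holds 47467 transcripts.

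The transcript with the highest mean FPKM stood for each symbol. Read depth was recovered from whole-number steps of FPKM times length in transcripts of 300 to 1500 bases (100% whole within rounding plus 0.01%). Folds between 2 libraries carry exact 95% counting intervals on read pairs (12.6 to 17.6 M per library). Genes with at least 1 FPKM in 2 libraries were tested on log2(FPKM + 1). Two-library differences were counted at 1 log2 unit with no p-value. The limma fit (limma 3.58.1, R 4.3.3, mean-variance trend) was run on simulated data with the same spread in every gene. The simulated genotype difference was equal at both temperatures, so this run does not show how well the fit does on these libraries. Tables were made with Python 3.11.15, pandas 2.3.3, numpy 2.4.6 and scipy 1.17.1.

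Named members were the 4 most abundant and 2 least typical of each family and the 10 with the smallest adjusted p in any limma contrast; other genes named as an extreme of a comparison were chosen after their values were seen. Of each other gene list, the examples were likewise chosen after the values were seen. The members and lists were chosen with earlier results of these data known. RefSeq names of assembly WBcel235 matched 52 of 52 members, all protein coding there. Alternatives were other pseudocounts, filters, length limits, centring, thresholds and 1 library left out. No sequences were used.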

Additional observations from a re-analysis of the deposited data

Results flagged for a closer look

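The gene ssp-33 differed from N2 in opposite directions at the 2 temperatures in both strains with daf-2(e1370) and an intact math-33. It was 1.49 log2 units higher in daf-2 than in N2 at 15 °C and -2.19 at 25 °C. In daf-16;daf-2 against N2 the values were 1.57 and -1.42. Both rest on the same pair of N2 libraries, in which ssp-33 stood at 0.488 FPKM at 15 °C and 11.8 FPKM at 25 °C. With 1 library a group the difference between the temperatures was not tested.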

How the results depend on the processing

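All members named under limma kept a positive estimate for temperature and for math-33 loss with any 1 library left out, but their counts did not hold. The count for temperature (36) ran from 13 to 35, that for math-33 loss (36) from 0 to 40, math-33 against N2 (0) from 0 to 22, daf-2;math-33 against daf-2 (0) from 0 to 27, daf-2 against N2 (0) from 0 to 3, daf-2 against daf-16;daf-2 (0) from 0 to 1, and the interaction from 0 to 0. A genotype left with 1 library is assumed to vary like the others and adds nothing to the fitted spread. The number of all genes called changed in these refits as well. With no filter the counts were 0 for temperature and 1 for math-33 loss, against 149 and 65 of all 40857 genes that rose. With a filter of 5 FPKM, math-33 against N2 had 1, against 70 of all 11712 genes higher. With transcripts of at least 200 bases only, it had 3, against 79 of all 14706 genes, and daf-2;math-33 against daf-2 had 2, against 12.

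Counted at 2 log2 units, math-33 against N2 had 1 member at 25 °C, and daf-2;math-33 against daf-2 had 18 at 15 °C and 28 at 25 °C. By the same threshold the step from 15 to 25 °C was passed by 4 members in math-33, 2 in daf-2, 1 in daf-2;math-33 and 3 in daf-16;daf-2. It was passed by 0 for daf-2 against N2 at 15 °C, 0 and 2 for daf-2 against daf-16;daf-2, 0 and 2 for daf-16;daf-2 against N2, and 1 and 0 for daf-2;math-33 against math-33 (15 and 25 °C). With a pseudocount of 0.1, daf-2 against N2 at 15 °C had 11, daf-2 against daf-16;daf-2 11 and 16, daf-16;daf-2 against N2 at 15 °C 7, and the temperature step in daf-2 28. Centring each library on its median gave 4 for daf-2 against N2 at 15 °C. For these recomputed counts between 2 libraries the share of all genes was not computed. The comparisons of daf-16;daf-2 with N2 and of daf-2;math-33 with math-33, and their alternatives, were chosen after seeing the data. The median of the interaction (0.32) reversed, running from -0.43 to 1.05 with 1 library left out, and was 0.49 with a pseudocount of 0.1. With 1 library left out the median ran from 0.91 to 2.32 for math-33 against N2, from -1.97 to -0.49 for daf-2 against N2 and from -0.82 to -0.038 for daf-2 against daf-16;daf-2. No other median changed sign, and 191 of 238 recomputed counts stayed within 1.5 times the main one. The 191 include pairs in which the main and the recomputed count were both 0, as for every count of the interaction. Such pairs carry no information on stability, so the 191 overstate how well the counts held. Of the recomputed medians, 106 but not all stayed within 1.5 times the main one. In 23 named members, estimates changed sign in 44 of 389 recomputed values for the interaction, 19 for daf-2 against daf-16;daf-2, 8 for daf-2 against N2, 2 for daf-2;math-33 against daf-2 and 0 for the other 3 contrasts. The cause of these changes was not tested. No paired analysis was possible because the labels give no replicate numbers and each group has 1 library. Depth limits the members under about 1 FPKM, and shared reads between near-identical copies limit values of single copies.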
